A study of Mus musculus with 2 samples.

Results

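Sebocytes, the secretory cells of the sebaceous gland, fill themselves with lipid and then burst to release it as sebum. This account follows 34 genes that make, modify, esterify and store that lipid, of 31053 features counted by single-cell RNA-seq in mouse back skin. They were taken by symbol from the feature table, each matching 1 row, because of their known function and not because of their values here. The genes cover fatty acid synthesis (Fasn, Acaca, Acly), fatty acid activation (Acsl1, Acsl3), desaturation (Scd1, Scd2, Scd3, Fads1, Fads2), elongation (Elovl1, Elovl3, Elovl5, Elovl6), reduction to fatty alcohol (Far1, Far2), esterification to waxes, triglycerides and sterol esters (Awat1, Awat2, Dgat2, Soat1), droplet coating (Plin2, Plin5, Cidea), regulation (Pparg, Srebf1, Insig1, Mc5r), the mevalonate and sterol route (Hmgcs1, Fdps, Idi1, Sqle, Cyp51), and lipid carriage and detoxification (Fabp5, Mgst1).

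The data were 1 library from a control mouse and 1 from a miR-205-induced mouse, both at postnatal day 53 and both carrying a K14-H2BGFP allele, which labels nuclei of keratin 14-expressing cells. The induced mouse carried a pTRE2-miR-205 transgene switched on by a doxycycline-responsive activator under the Krt14 promoter, so induction was aimed at keratin 14-expressing epithelium and not at dermal cells, and was fed doxycycline chow for 4 days from day 49. The labels call the control untreated, whereas the extraction protocol has both mice on doxycycline. The labels give the strain as C57BL/6, while the study's methods state that the transgene was made in FVB mice. Subcutaneous fat was removed, and epidermal, follicle and dermal cells were sorted to 3:5:2 before both samples were loaded on 1 chip. With 1 library per group there is no replicate check and no p-value. The intervals below are 95% intervals that cover counting error only, and the treatment cannot be told apart from any other difference between these mice. Neither the mature microRNA nor the transgene is measured by these counts.

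In sebocytes, acetyl units from citrate are built into saturated chains by Fasn, after which desaturases and elongases set their length and bend. Fatty alcohols from the reductases are joined to acyl chains by the Awat enzymes to give wax esters, while Dgat2 completes triglycerides and Soat1 makes sterol esters. Plin2 and Cidea sit on the droplet surface, Pparg drives sebocyte differentiation, and Srebf1 and Insig1 adjust lipid and sterol synthesis to supply. The mevalonate genes begin the path to isoprenoids and cholesterol, and are active in most cell types rather than in sebocytes alone.

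MicroRNA-205 recognises transcripts through the seed, bases 2 to 8 of the mature strand. It is shown in capitals below with the 3′ UTR sites of the member genes that hold its exact complement. Only this 7-base match in the longest annotated 3′ UTR of each gene was searched. A member without it is therefore not shown to be free of direct pairing. The mature strand is from RefSeq at chr1:193507503-193507524, minus strand, GRCm38.p6. The sites are from the reference annotation on build NCBIM37, all on the plus strand, with the 7 complementary bases in capitals.
miR-205-5p: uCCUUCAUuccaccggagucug
Elovl3: tgggaaggATGAAGGgaaggagg
Sqle: agttgaaaATGAAGGtcagagaa
Awat1: gaaggaagATGAAGGaggctgtg
Far1: gcattattATGAAGGaatgtagt
Acsl1: caaaaacaATGAAGGaaaccaaa
The sites lie in the 3′ UTRs of Elovl3 at chr19:46210123-46210145, Sqle at chr15:59162604-59162626, Awat1 at chrX:97773320-97773342, Far1 at chr7:120712675-120712697 and Acsl1 at chr8:47621353-47621375. Of 33 members with an annotated 3′ UTR, 5 held the complement (15.2%), beside 2064 of 19915 genes (10.4%). The remaining member, Hmgcs1, had no 3′ UTR under that symbol in this annotation and was not searched.

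The sterol response element is the motif at which SREBP factors bind. It was searched in the promoters of 24 members found in the RefSeq promoter table, as TCACNCCAC on both strands, over 250 bases before to 50 after the start. Acsl1 and Hmgcs1 held a match, beside 1.44% of the 27025 genes with a promoter in that table. The promoter of Hmgcs1, which makes the first committed precursor of the mevalonate route and is described further below, is printed from 250 bases upstream to the start at chr13:119690101-119690350, plus strand, GRCm38.p6, with the match in capitals.
Hmgcs1: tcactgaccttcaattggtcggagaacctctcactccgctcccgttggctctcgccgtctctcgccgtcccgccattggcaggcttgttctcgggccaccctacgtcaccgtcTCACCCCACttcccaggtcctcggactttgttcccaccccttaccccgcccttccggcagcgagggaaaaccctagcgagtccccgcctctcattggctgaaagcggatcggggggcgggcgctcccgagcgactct
The E-box CACGTG was found in the promoters of Elovl5, Insig1 and Plin2 (8.09% of all these genes), and the PPAR element AGGTCANAGGTCA in none of the 24 (0.0481% of all). A CCAAT box, read as CCAAT, was in 18 of the 24 (41.1% of all these genes). These matches are letters in a window and show no binding.

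After the study's cell filter, 3936 of 4545 control barcodes and 3628 of 4264 induced barcodes were kept, with median depths of 12199 and 11753 unique molecular identifiers (UMIs) per cell. In all, 11 barcode sequences occurred in both libraries. Cells were clustered without the 34 genes and without 61 other lipid genes, and 1 cluster met the marker rule for sebaceous gland. It had 8 of 12 sebaceous markers raised, among them Hsd3b6, an enzyme of steroid synthesis, and Fa2h, which hydroxylates fatty acids. The markers Thrsp and Cyp4f39 had 0 UMIs there. Of 6 adipocyte markers only Retn was seen, with 5 control UMIs and 1 induced UMI.

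Sebaceous gland-like cells numbered 85 in control (2.16% of kept cells, 95% exact interval 1.73 to 2.66) and 110 in induced skin (3.03%, 2.498 to 3.64). This share depended on the filter. These cells had median mitochondrial shares of 7.98% in control and 7.36% in induced, close below the limit of 10%, whereas other kept cells had medians of 4.91% and 4.90%. With the limit raised to 20% and the cells re-clustered, the counts were 158 control cells (3.72%, 3.17 to 4.33) and 139 induced cells (3.54%, 2.98 to 4.16). Of these, 70 control and 22 induced cells lay at or above 10%. The lower limit therefore left out more control than induced sebaceous cells. Most ratios between the libraries in sebaceous cells are given below at both limits, while shares after thinning and most levels per cell are at the 10% limit.

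The 34 genes took 1.497% of the UMIs of control and 2.01% of those of induced sebaceous gland-like cells, and 0.106% and 0.101% of the UMIs of all other kept cells. Under the 20% limit the sebaceous shares were 1.86% and 1.83%. Of 31 members with at least 50 UMIs, 19 were at least 2-fold higher in sebaceous gland-like than in all other cells in both libraries, against a background of 8.87% of 13098 genes, and 2 were lower, Scd2 and Fads1, against 21.5%. Over these members the median log2 ratio of sebaceous to other cells was 2.61 in control and 2.86 in induced, beside −0.23 and −0.34 over all genes. Of 56 other lipid genes tested, 28 were higher and 1 lower.

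Droplet and wax genes stood far above the other cells. Far2, the reductase that supplies fatty alcohol, was 283-fold higher in control and 423-fold higher in induced sebaceous gland-like cells than in the rest. Cidea, which fuses droplets, was 237-fold and 305-fold higher, and Plin2, which coats them, 80.1-fold and 88.8-fold. The desaturase Scd1 was 135-fold and 222-fold higher. The elongase Elovl6, which extends palmitate, was 62.1-fold and 58.2-fold higher, and Soat1 60.6-fold and 63.3-fold. Mgst1, a membrane glutathione transferase, was 41.9-fold and 65.4-fold higher, and the fatty acid carrier Fabp5 27.8-fold and 44.4-fold. The sebaceous gland-like cells, which were under 4% of kept cells, held 81.1% of all Scd1 UMIs of kept control cells and 91.7% of those of kept induced cells.

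Early steps were less restricted. Fasn was 6.11-fold and 8.24-fold above other cells and Srebf1 5.91-fold and 5.96-fold. Acly, which releases acetyl-CoA from citrate, was 3.55-fold and 4.51-fold higher. The mevalonate gene Fdps was 2.28-fold higher in control but 6.83-fold in induced cells. Acsl1, Acsl3, Far1, Elovl1 and Sqle were not 2-fold higher in either library. Of the 34 genes, 23 had their highest mean level in sebaceous gland-like cells among 17 populations. For 20 of these 23 both libraries lay above every value of the other populations. These 20 include Plin5 and Mc5r, which had too few UMIs there for a ratio between the libraries. The share of all genes that peak in these cells was not computed, so the counts measure no enrichment.

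The other 11 genes peaked elsewhere. Acsl1 was highest in suprabasal cells of the interfollicular epidermis (IFE), with a mean CPM (UMIs of a gene scaled to a common library total of 1000000) of 62.6, and Far1 in dermal papilla-like cells with 131 CPM. Scd2, another desaturase, was highest in fibroblast-like cells with 102 CPM, as was Insig1 with 100.4 CPM. Idi1 and Sqle were highest in cluster 3, an unnamed cluster with Krt75 and Fgf18 among its leading genes, and Acsl3 in cluster 12. Elovl5 and Fads2 were highest in T cell-like cells, Fads1 in antigen-presenting-like cells and Elovl1 in cluster 6, but for these 4 genes, and for Insig1 and Sqle, the values overlapped with another population's.

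**Figure D1:**
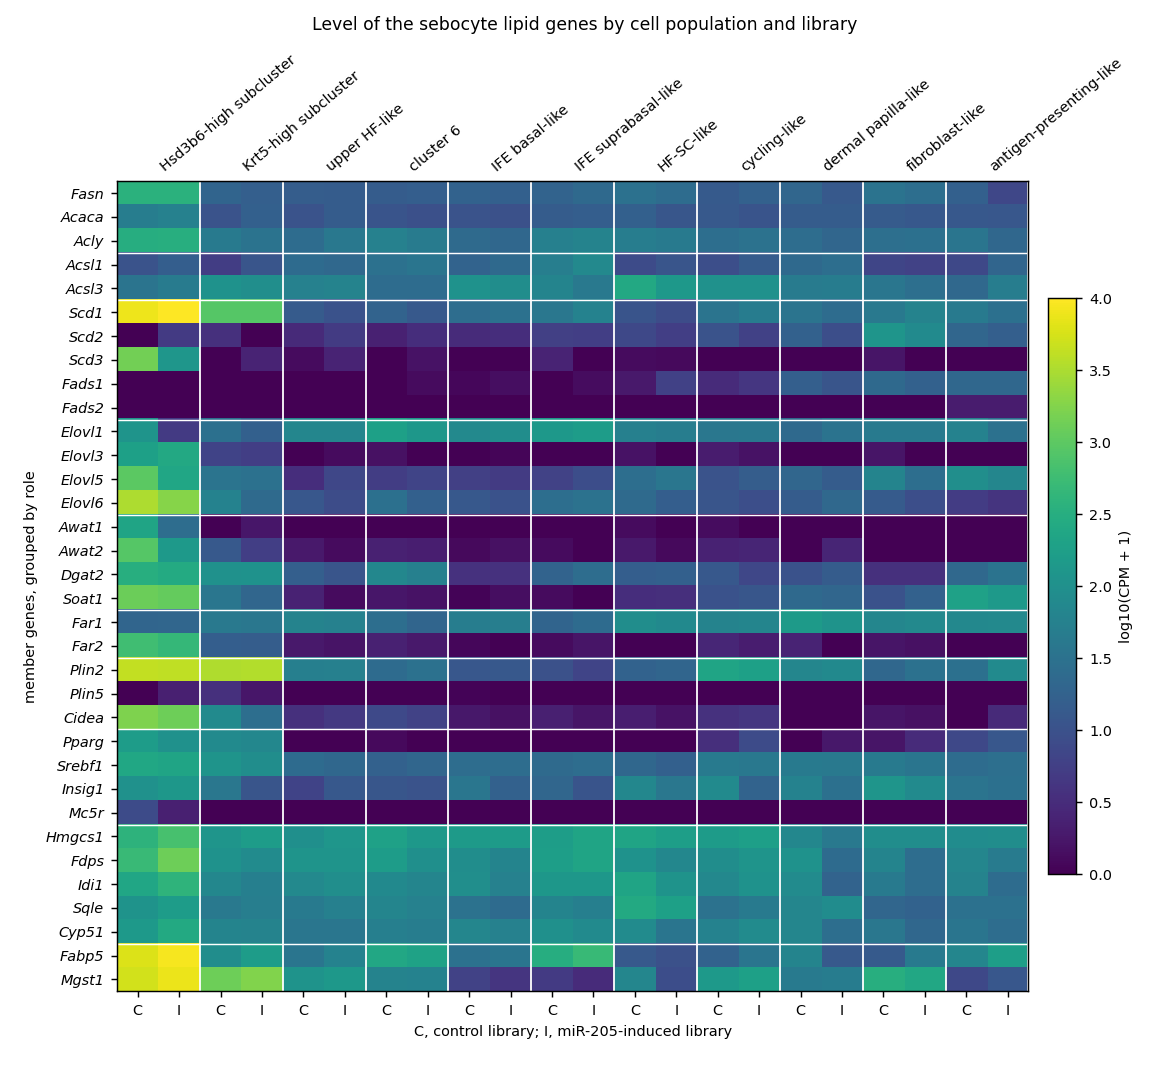
Heat map of member levels, with the 34 genes as rows ordered by role and cell populations as columns, each split into the control (C) and induced (I) library; colour is log10(CPM + 1) of summed UMIs. The Hsd3b6-high sebaceous subcluster stands apart for most rows, while the mevalonate genes, Acsl3, Elovl1 and Far1 are spread over all populations.

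At a finer clustering resolution the sebaceous gland-like cells split exactly into 2 subclusters that differed in how far the lipid genes were expressed. A subcluster high in Hsd3b6 held 21 control and 38 induced cells, and its members took 3.71% and 4.12% of UMIs. A subcluster high in Krt5, a keratin of basal epithelium, held 64 and 72 cells, with 0.687% and 0.719%. Of 28 members with at least 50 UMIs, 23 were at least 2-fold higher in the Hsd3b6-high than in the Krt5-high cells in both libraries (background 9.60% of 5740 genes). Far2 had a log2 ratio of 5.27 in control and 4.96 in induced between the subclusters, Soat1 5.13 and 5.80, Fabp5 6.06 and 5.73, Fasn 4.24 and 4.52, and Scd1 3.17 and 3.62. Plin2 was nearly level between them, at 0.33 and 0.29, so the droplet coat gene was high in cells with little Soat1 or Far2. Acsl3 was the 1 member at least 2-fold lower in the Hsd3b6-high cells, at −1.66 and −1.03 (background 10.3%). These ratios describe the clustering and were not tested.

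The Hsd3b6-high cells made up 24.7% (16.0 to 35.3) of control and 34.5% (25.7 to 44.2) of induced sebaceous gland-like cells. The intervals overlapped. Under the 20% mitochondrial limit they were 48 of 158 control and 45 of 139 induced cells, of which 28 control and 6 induced cells lay at or above 10%. A higher sum over the whole class does not separate more Hsd3b6-high cells from more transcript in each, so the subclusters are described separately below.

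Between the libraries, 28 members had at least 50 UMIs in sebaceous gland-like cells. At the study's 10% limit, 10 were at least 1.5-fold higher in the induced library (background 7.39% of 5740 genes) and 5 at least 1.5-fold lower (10.3%). At the 20% limit none was higher (5.25% of 7005 genes) and 7 were lower (7.82%). The median log2 ratio of the members was 0.09 at the first limit and −0.14 at the second, beside −0.03 and −0.05 over all genes. The 10 higher genes were all 5 mevalonate genes, Fabp5, Mgst1, Elovl3, Scd1 and Acaca. Every one of the 10 kept a positive ratio at the 20% limit except Acaca, but all fell below 1.5-fold.

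Fdps, which makes farnesyl diphosphate, had the highest ratio of the 28 at the 10% limit. Control sebaceous gland-like cells had 338 UMIs (218 CPM, 195 to 242) and induced ones 1190 UMIs (554 CPM, 523 to 587). The log2 ratio was 1.35 (1.17 to 1.53) at the 10% limit and 0.56 (0.44 to 0.68) at the 20% limit. Hmgcs1, whose promoter is printed above, had 192 CPM (171 to 215) in control and 360 CPM (335 to 386) in induced cells, with a ratio of 0.91, and of 0.57 at the 20% limit. The counting intervals of both genes did not overlap between the libraries. Idi1 was at 0.68, Sqle at 0.62 and Cyp51, the sterol demethylase, at 0.75, and at the 20% limit at 0.11, 0.30 and 0.39.

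The other 5 higher genes included the abundant Scd1, Fabp5 and Mgst1. Scd1 had 2733 CPM (2652 to 2817) in control and 4564 CPM (4474 to 4655) in induced cells, with a ratio of 0.74 on the log2 scale, and of 0.07 at the 20% limit. Fabp5 had 1707 CPM (1642 to 1773) in control against 3408 CPM (3330 to 3487), giving 1.00, and 0.25 at the 20% limit. Mgst1 had 2407 CPM (2330 to 2485) against 3984 CPM (3900 to 4069), giving 0.73, and 0.24 at the 20% limit. Elovl3, an elongase of very long saturated chains, had 85 and 215 UMIs and a ratio of 0.87, and 0.17 at the 20% limit. Acaca, the acetyl-CoA carboxylase, had 31 and 66 UMIs and a ratio of 0.61 (−0.01 to 1.29), and −0.08 at the 20% limit.

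Other members were close between the libraries. Plin2 had 3591 CPM (3497 to 3686) in control and 3701 CPM (3620 to 3784) in induced cells, giving 0.04 (−0.01 to 0.09), and −0.10 at the 20% limit. Cidea was at 0.00 (−0.13 to 0.14), Far2 at 0.09 and Dgat2 at 0.09. With the 20% limit these 3 were at −0.57, −0.06 and −0.27. The transcription factors Pparg and Srebf1 were at −0.30 (−0.61 to 0.02) and −0.14 (−0.39 to 0.12), and at −0.32 and −0.53 at the 20% limit. Fasn was at 0.39, Acly at 0.32, Soat1 at 0.27, Acsl3 at −0.24, Far1 at −0.18 and Insig1 at −0.03. With the 20% limit these 6 were at −0.06, −0.28, −0.58, −0.18, 0.03 and −0.98, so that Insig1 alone of them passed 1.5-fold.

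The remaining 6 members had too few UMIs for a ratio. Acsl1 had 9 control and 26 induced UMIs. Scd2 had 3 in each library, Plin5, which tethers droplets to mitochondria, 3 and 2, and Mc5r, the melanocortin receptor of the gland, 3 and 1. Fads1 and Fads2 had 0 UMIs in the 85 control and 110 induced cells, which allows up to 1.93 and 1.40 CPM, or 3.53% and 2.73% of cells with a UMI (3 counts of the total). Of the 5 members with a seed complement, Elovl3 and Sqle were higher in induced sebaceous gland-like cells at the 10% limit, Awat1 was lower on the strength of 2 control cells described below and was higher without them, Far1 was within 1.5-fold and Acsl1 was not tested.

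**Figure D2:**
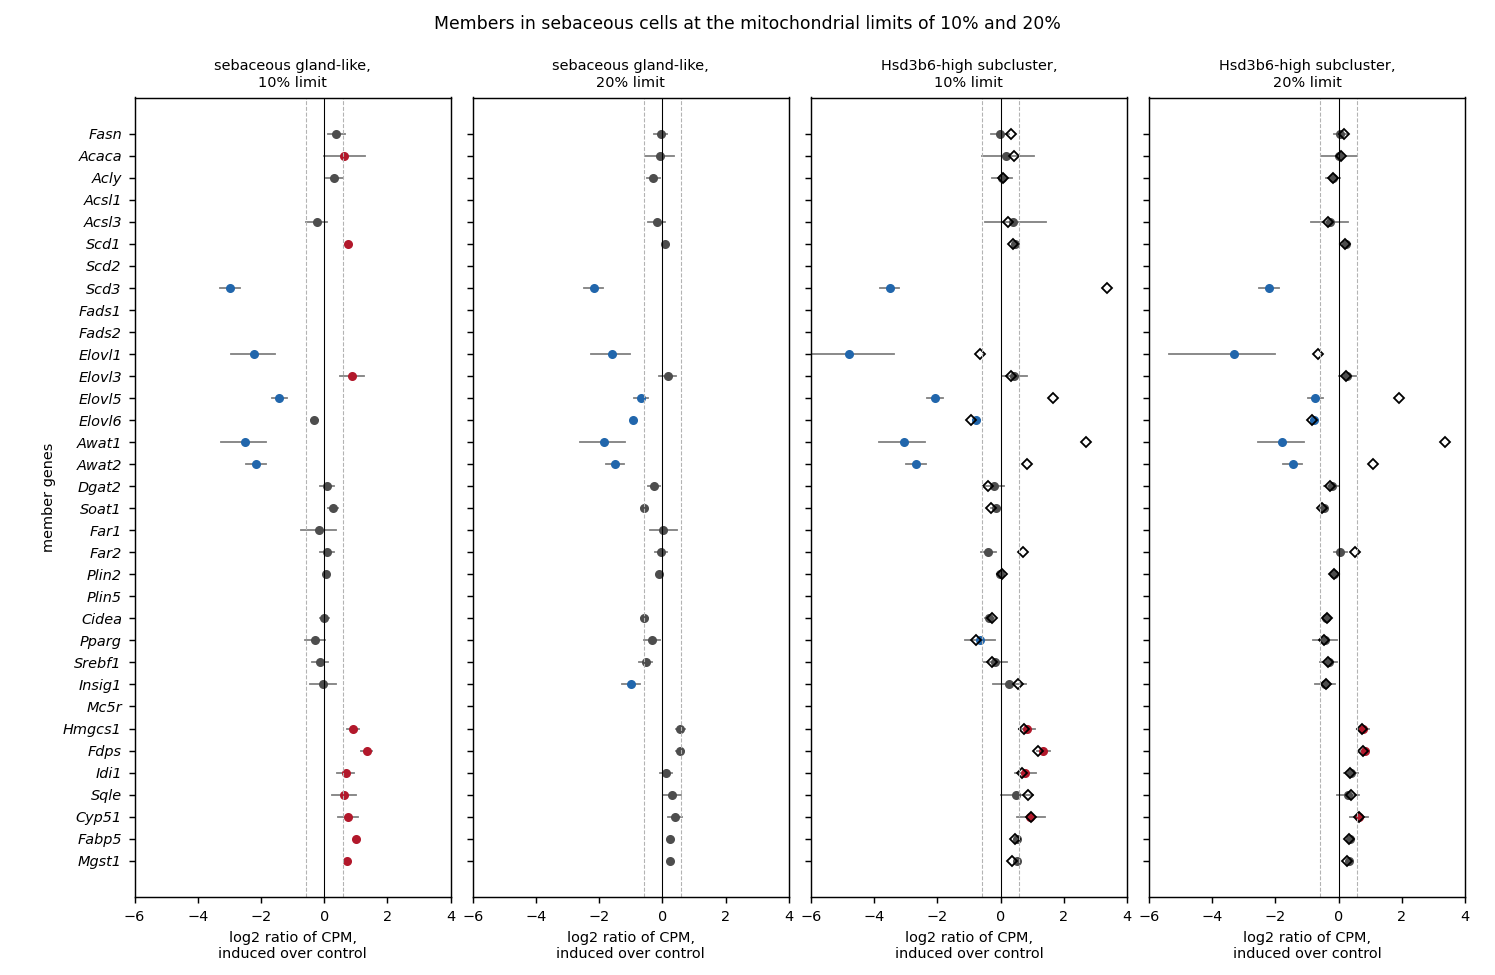
Log2 ratio of CPM, induced over control, for each member with at least 50 UMIs (points) with its 95% counting interval (lines), in sebaceous gland-like cells and in the Hsd3b6-high subcluster at the 10% and 20% mitochondrial limits; red and blue mark ratios at least 1.5-fold higher or lower (dashed lines), and open diamonds are the ratios without 2 control cells. The mevalonate genes lie to the right in all 4 panels, and the diamonds of Scd3, Elovl5, Awat1 and Awat2 lie to the right of 0 where the points lie to the left.

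The 5 lower genes at the 10% limit were Scd3 (log2 ratio −2.97), Awat1 (−2.49), Elovl1 (−2.22), Awat2 (−2.15) and Elovl5 (−1.42), and with the 20% limit they were at −2.16, −1.84, −1.61, −1.48 and −0.67. Scd3 is a desaturase of differentiated sebocytes, and Awat1 and Awat2 make wax esters. The values of Scd3, Awat1, Awat2 and Elovl5 rested on 2 control cells of the Hsd3b6-high subcluster. Elovl1 rested on them only in part, and over the class without them it was still lower at the 10% limit, at −1.05. The 2 cells had 28829 and 19348 UMIs, mitochondrial shares of 6.75% and 6.98%, and doublet-score percentiles of 87.6 and 86.3 within their library. Together they held 584 of the 588 Scd3 UMIs of the control subcluster, 90 of 91 for Awat1, 339 of 367 for Awat2, 380 of 407 for Elovl5 and 47 of 49 for Elovl1. They also held 145 of the 247 Far2 UMIs, whereas for Fdps they held 1 of 215 and for Dgat2 0 of 135. Outside the members, the same cells held 1483 and 514 UMIs of Hamp2 and 526 and 395 UMIs of Serpinb6e, beside 6 Serpinb6e UMIs in the other control cells of the subcluster, and Elovl7, an elongase of the other pathway genes, with 65 and 155 beside 4. Hamp2 and Serpinb6e were named after their values were seen.

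Without these 2 cells the direction of 4 of the 5 genes turned. The cells were picked from the control library alone for their Scd3 UMIs, so a higher ratio without them is in part fixed by that choice and supports no difference in the other direction. In the Hsd3b6-high subcluster the log2 ratio became 3.35 (2.12 to 5.42) for Scd3, 1.65 (1.09 to 2.31) for Elovl5 and 0.84 (0.25 to 1.51) for Awat2. Awat1 had 1 control UMI left against 21 induced, at 2.70 (0.62 to 8.62), and Elovl1 had 2 against 3, at −0.66 (−3.68 to 3.03). With the 20% limit the values without them were 4.24 for Scd3, 1.91 for Elovl5 and 1.10 for Awat2, while Awat1 had 2 control and 21 induced UMIs and Elovl1 8 and 4. Leaving out the 5 cells with most member UMIs from the class in each library kept Scd3 (−2.19), Awat1 (−4.07), Awat2 (−1.78), Elovl1 (−1.45) and Elovl5 (−0.71) lower. Those 5 were ranked by the UMIs of all members. At least 1 of the 2 control cells must have stayed in, since together they held 584 of 588 control Scd3 UMIs. These values therefore do not show the genes without both cells. A Scd3 UMI was in 4 of 21 control and 19 of 38 induced cells of the subcluster, and an Awat2 UMI in 13 of 21 and 32 of 38. In cells thinned to 5000 UMIs this gap was not detectable, with Scd3 in 2 of 15 (13.3%, 1.66 to 40.5) and 6 of 30 (20%, 7.71 to 38.6) and Awat2 in 6 of 15 and 16 of 30. In cells with fewer than 5000 UMIs, of which there were 6 control and 8 induced, a few Scd3 UMIs gave high CPM, so the cells above 2000 CPM numbered 3 in control and 4 in induced.

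**Figure D3:**
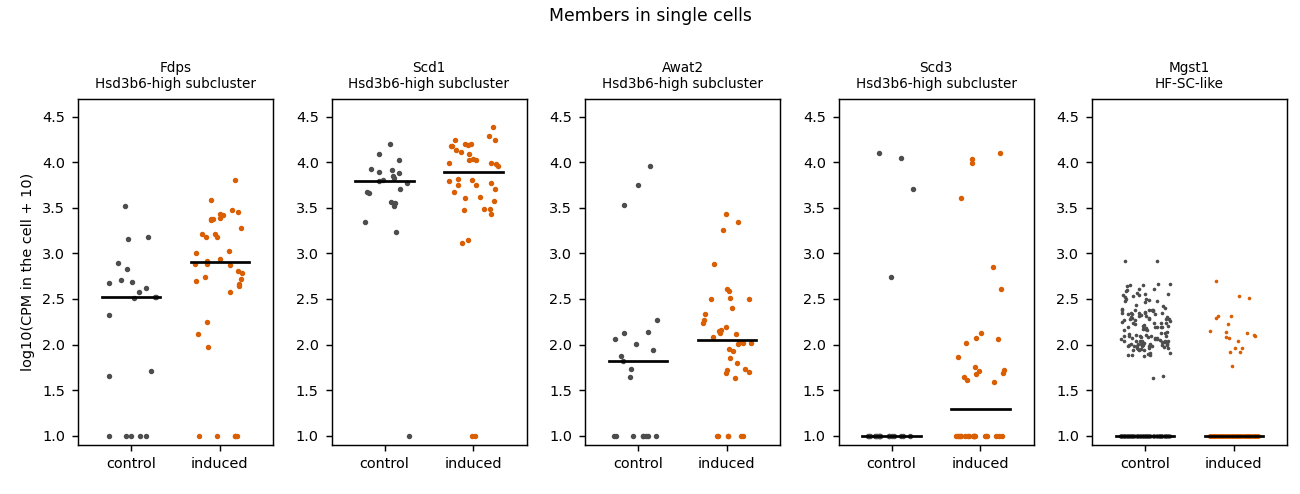
Level of single genes per cell as log10(CPM + 10), each point 1 cell and each bar the median, for Fdps, Scd1, Awat2 and Scd3 in the Hsd3b6-high subcluster (21 control and 38 induced cells) and for Mgst1 in HF-SC-like cells (357 and 360). Fdps and Scd1 overlap widely between the libraries, the high control values of Scd3 and Awat2 come from few cells, and fewer induced HF-SC-like cells lie above the floor for Mgst1.

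Within the Hsd3b6-high subcluster, 27 members were tested and the sterol genes set the higher group. At the 10% limit 4 were higher (background 8.62%), namely Fdps (1.36, 1.15 to 1.58), Cyp51 (0.94, 0.53 to 1.40), Hmgcs1 (0.83, 0.58 to 1.10) and Idi1 (0.78, 0.45 to 1.13). At the 20% limit 3 of these remained past 1.5-fold (background 8.54%), with Fdps at 0.83 (0.70 to 0.96), Hmgcs1 at 0.78 (0.61 to 0.96) and Cyp51 at 0.65 (0.37 to 0.93), and Idi1 was at 0.39. Without the 2 control cells those 3 were at 0.77, 0.74 and 0.65. Per cell at the 10% limit, Fdps had a median of 321 CPM over control cells, from 0 to 3330, and 787 CPM over induced cells, from 0 to 6428. Its ranges overlapped widely, and the induced quartiles of 433 and 2230 CPM lay above the control quartiles of 34.7 and 506 CPM. With the 20% limit the medians were 492 and 817 CPM.

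Scd1 in these cells was at 0.44 and Fabp5 at 0.51, under 1.5-fold, as was Mgst1 at 0.52, and at the 20% limit the 3 were at 0.23, 0.35 and 0.32. Median Fabp5 per cell was 6001 CPM in control and 10723 CPM in induced cells, and at the 20% limit 5884 and 10702 CPM. Median Scd1 was 6313 and 7880 CPM, but 6959 and 6645 CPM at the 20% limit, where the order turned. Plin2 was at −0.02 (−0.10 to 0.07), and at −0.16 at the 20% limit.

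In the same subcluster 7 members were lower at the 10% limit (background 13.0%) and 6 at the 20% limit (7.88%). Besides the 5 genes whose control UMIs there lay mostly in the 2 control cells, Elovl6 was lower at both limits. It was at −0.77 (−0.88 to −0.66) and −0.80 (−0.88 to −0.71), and at −0.92 and −0.85 without those cells. Its per-cell median was 1856 CPM in control and 961 CPM in induced cells, with ranges of 0 to 12100 and 0 to 8323, and at the 20% limit 2148 and 1012 CPM. Over the whole class the ratio of Elovl6 was −0.32 at the 10% limit and −0.92 (−1.01 to −0.84) at the 20% limit, and it became 0.28 when the upper limit on genes per cell was lifted and 0.69 when cells were classed one by one from marker UMIs, both of which took in more cells. Pparg was lower at the 10% limit only, at −0.64 (−1.12 to −0.16) against −0.42 (−0.82 to −0.05).

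In the Krt5-high subcluster 21 members were tested. At the 10% limit Fabp5 alone was higher, at 0.84 (background 5.73%), and 5 were lower (9.77%): Insig1 (−1.82), Cidea (−1.59), Elovl6 (−1.31), Elovl1 (−0.87) and Soat1 (−0.83). At the 20% limit, with 110 control and 94 induced cells and 24 members tested, none was higher (4.60%) and 6 were lower (10.3%). Insig1, the sterol-sensing brake on SREBP processing, went from 112 to 15 UMIs, a log2 ratio of −2.70 (−3.63 to −1.96). Cidea went from 156 to 37 UMIs (−1.91), Elovl6 from 158 to 54 (−1.38), Srebf1 from 298 to 163 (−0.71), Elovl1 from 49 to 25 (−0.80) and Soat1 from 131 to 75 (−0.64). All 5 lower genes at the 10% limit were thus also lower at the 20% limit. Plin2 was level here too, at 0.02 and −0.04, and so were the 5 mevalonate genes summed, at 403 CPM in control and 407 CPM in induced cells.

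Other values moved with these differences, and their part was not tested. In the Hsd3b6-high subcluster the summed level of 9 upper hair follicle (upper HF) markers was 4686 CPM in control and 2314 CPM in induced cells at the 10% limit, with 8 and 6 of the 9 seen, and 3320 and 2634 CPM at the 20% limit. The 8 suprabasal IFE markers summed to 1922 and 533 CPM, and to 797 and 709 CPM at the 20% limit. The summed level of 18 dissociation stress genes was 5075 and 3843 CPM, and 4964 and 3961 CPM at the 20% limit. In the Krt5-high subcluster the upper HF markers summed to 4387 and 3212 CPM, and to 3833 and 2964 CPM at the 20% limit. The 7 cycling markers summed there to 58.9 and 41.9 CPM, and to 364 and 161 CPM at the 20% limit, with all 7 seen in each.

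To compare depth-matched cells, each was thinned to 5000 UMIs. Shallower cells, 7 control and 9 induced among the sebaceous gland-like ones, were not used. Among the rest, 87.2% of control and 88.1% of induced cells kept an Scd1 UMI, 100% and 99.0% a Plin2 UMI and 97.4% and 100% an Mgst1 UMI. Fabp5 was in 30.8% (20.8 to 42.2) of control and 55.4% (45.2 to 65.3) of induced cells, and in 52.9% and 75.5% unthinned. By subcluster, thinned Fabp5 was in 14 of 15 and 30 of 30 Hsd3b6-high cells and in 15.9% (7.88 to 27.3) and 29.6% (19.3 to 41.6) of Krt5-high cells, with overlapping intervals. In thinned T cell-like cells, taken as background, Fabp5 was in 1 of 12 control (8.33%, 0.211 to 38.5) and 7 of 46 induced cells (15.2%, 6.34 to 28.9). These intervals are wide, and whether T cell-like cells express Fabp5 themselves was not tested. Median depths before thinning were 17608 and 19081 UMIs in sebaceous gland-like and 4451 and 5064 in T cell-like cells. Elovl6 was in 37.2% (26.5 to 48.9) and 29.7% (21.0 to 39.6) of thinned cells of the class. It was in 14 of 15 and 27 of 30 Hsd3b6-high cells, where the share is too near its maximum to show a lower level, and in 27.0% (16.6 to 39.7) and 9.86% (4.06 to 19.3) of Krt5-high cells.

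The other genes of the pathway were 61 enzymes and regulators. In sebaceous gland-like cells 47 were tested, 23 were higher and 4 lower, with a median of 0.58 at the 10% limit (background 7.39% higher and 10.3% lower). At the 20% limit 5 of 52 were higher and 6 lower, with a median of 0.07, beside a background of 5.25% and 7.82%. Those past 2-fold at the 10% limit included Agpat2, an acyltransferase of phosphatidic acid synthesis (1.41), the sterol enzymes Lss (1.24) and Fdft1 (1.02), the lipase Mgll (1.04), and on the lower side Elovl7 (−4.94), the fatty acid transporter Cd36 (−2.39) and Agpat3 (−1.42). Of these, Agpat2 (0.64), Elovl7 (−3.98), Cd36 (−1.80) and Agpat3 (−0.87) passed 1.5-fold at the 20% limit. The 2 control cells held most of the control UMIs of Elovl7, Cd36 and Agpat3 in the Hsd3b6-high subcluster. In that subcluster 9 of 12 tested sterol genes outside the members were higher and none lower, with a median of 0.65 (background 8.62% and 13.0%). With the 20% limit 6 of 16 were higher and 1 lower, with a median of 0.54 (background 8.54% and 7.88%). Among the 6 were Fdft1, which makes squalene (1.01, 0.74 to 1.29), Hsd17b7 (0.85), Lbr (0.82) and Mvd (0.68), and Dhcr7 was lower (−1.51).

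Outside the gland, cells that resembled bulge stem cells of the hair follicle (HF-SC-like), 357 in control and 360 in induced, differed in Mgst1. Mgst1 went from 236 UMIs (67.7 CPM) in control to 28 UMIs (7.82 CPM) in induced HF-SC-like cells, or −3.09 (−3.73 to −2.54) on the log2 scale. A Mgst1 UMI was seen in 140 control cells and in 20 induced cells. After thinning to 5000 UMIs the shares were 25.8% (21.2 to 30.9) and 2.60% (1.196 to 4.88), beside 1 of 46 induced T cell-like cells (2.17%) and 0 of 12 control ones. Over all alternatives the ratio ranged from −3.16 to −1.87.

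Of 21 members tested in HF-SC-like cells, none was higher (background 9.37%) and 7 were lower (4.98%), with a median of −0.37 beside 0.07 over all genes. Besides Mgst1 these were Cyp51 (298 to 127 UMIs, −1.27), Idi1 (756 to 398 UMIs, −0.96), Acsl3 (888 to 479 UMIs, −0.93), Insig1 (−0.90), Elovl6 (−0.69) and Fdps (−0.61). With the 20% limit Mgst1, Cyp51, Idi1, Acsl3 and Insig1 were at −3.05, −1.30, −0.95, −0.92 and −0.91, Fdps at −0.59 and Elovl6 at −0.46. Of 16 other sterol genes 7 were lower there and 1, Dhcr7, was higher (0.92), with a median of −0.49. Among the lower ones were Mvd (−0.85), Msmo1 (−0.68) and Hsd17b7 (−0.65). The summed level of the 18 stress genes was 28188 CPM in control and 32157 CPM in induced HF-SC-like cells, and its part in these values was not tested.

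Dermal papilla-like cells, the mesenchymal cells at the follicle base, numbered 141 and 222. Of 14 members tested none was higher (6.93%) and 6 were lower (9.54%). The mevalonate genes Idi1 (55 to 22 UMIs, −2.21), Fdps (71 to 30 UMIs, −2.14), Cyp51 (−1.35) and Hmgcs1 (−0.82) were among them, with Fabp5 (41 to 15 UMIs, −2.33) and Insig1 (−0.99). In fibroblast-like cells (137 and 185) 2 of 19 members were higher (8.46%) and 5 lower (3.93%). Fdps (−1.23), Cyp51 (−0.85) and Idi1 (−0.75) were again lower, with Elovl5 (−1.18) and Scd2 (−0.60), and Fabp5 (19 to 82 UMIs, 1.72) and Scd1 (0.59) were higher. The Scd1 value became −0.14 at the 20% limit.

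Epidermal cells differed in fewer members. In IFE basal-like cells (724 and 464) none of 21 was higher (5.50%), and 3 were lower (3.32%), namely Insig1 (407 to 126 UMIs, −1.10), Idi1 (1074 to 425 UMIs, −0.75) and Mgst1 (−0.67). In IFE suprabasal-like cells (175 and 148) Fabp5 (0.64), Scd1 (0.61) and Acsl1 (0.60) were higher, 3 of 18 (7.11%), and Insig1 (−0.99) and Acsl3 (−0.67) lower (4.79%). Fabp5 there went from 1013 UMIs (313 CPM) to 1384 UMIs (488 CPM). In upper HF-like cells (264 and 221), which border the gland, 3 of 20 were higher (5.44%), Insig1 (1.07, on 19 and 38 UMIs), Fabp5 (0.71) and Acly (0.65), and none lower (2.76%). In cycling-like cells (146 and 87) 18 members were tested, of which Fabp5 was higher (1.05, background 5.27%) and Insig1 lower (238 to 32 UMIs, −2.21, background 6.93%). In cluster 6 (236 and 208), of 20 tested none was higher (5.32%) and Elovl6 (−0.89) and Fdps (−0.70) were lower (3.56%). In antigen-presenting-like cells (88 and 96) 17 were tested. Plin2 (1.47), Fabp5 (1.37) and Acsl3 (1.11) were higher (8.67%), and Idi1 (−1.26), Elovl1 (−0.95) and Acly (−0.70) lower (10.3%).

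**Figure D4:**
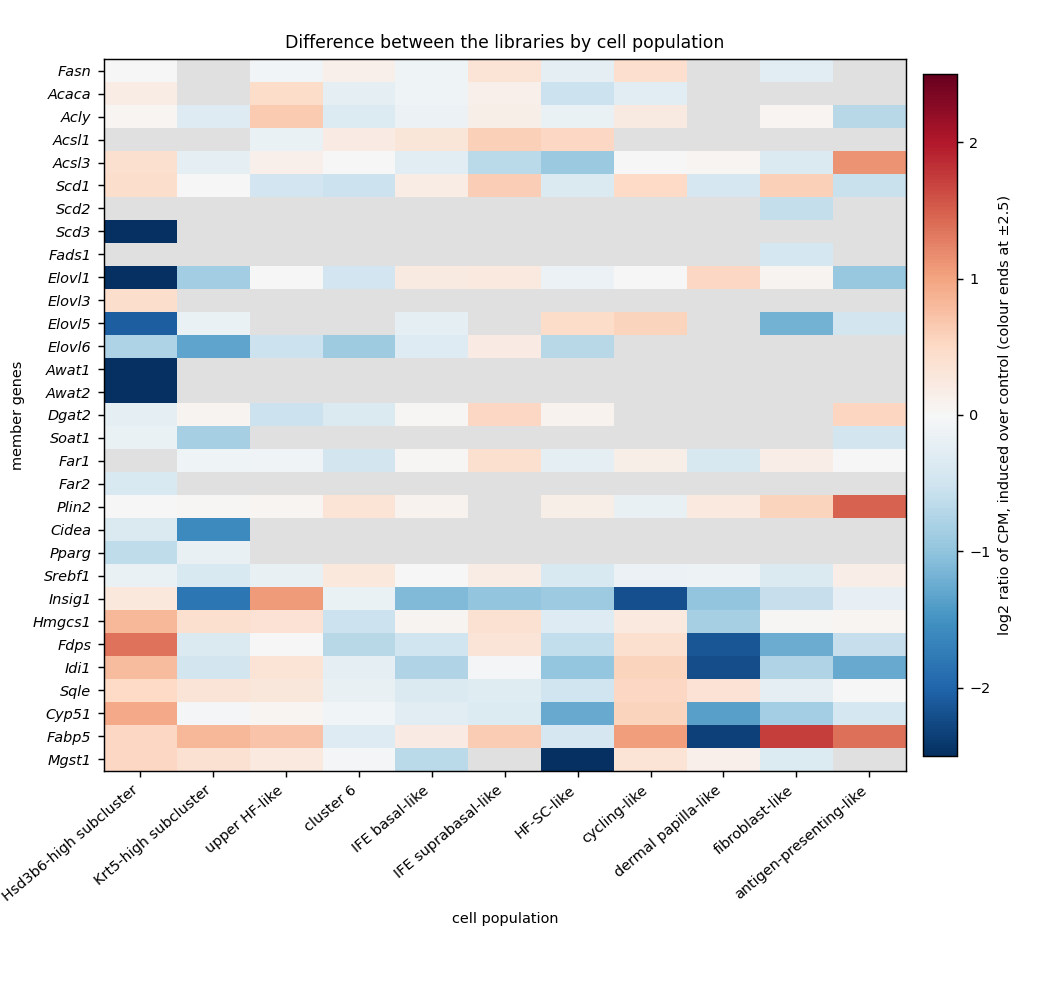
Heat map of log2 ratios of CPM, induced over control, with genes as rows and cell populations as columns at the 10% mitochondrial limit; grey marks a gene with fewer than 50 UMIs over both libraries, and colour ends at ±2.5. Fdps, Idi1 and Cyp51 are red in the Hsd3b6-high subcluster and blue in HF-SC-like, dermal papilla-like and fibroblast-like cells.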

How the data were processed

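Single-cell RNA-seq of back skin from 1 control and 1 miR-205-induced mouse was used as deposited. The authors deposited raw UMI counts per gene and barcode, made with Cell Ranger 3.0.1 per the file headers and with genome build mm10 per the submitters' processing notes. Such counts come from transcript 3′ ends, so levels of different genes were not ranked against each other. How reads shared by near-identical genes such as Scd1 to Scd3 were counted was not checked, and their levels could be affected by it. Library totals were 55465594 UMIs in control and 49733560 in induced.

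As in the study's methods, barcodes with over 200 and under 5000 genes and under 10% mitochondrial UMIs were kept. They were integrated and clustered in Seurat 5.3.0 (R 4.3.3) with 2000 variable genes, 30 dimensions and resolution 0.8, leaving the members and the 61 other lipid genes out of the variable genes. A cluster was named "X-like" when at least 3 markers with 20 or more UMIs were 2-fold higher there than elsewhere and seen in 10% or more of its cells, and no other class had more markers among its top 10 genes. The last conditions of that rule were set after seeing the data. Scrublet (scanpy 1.11.5) marked 4 barcodes per library at its automatic threshold, so doublets were not removed, and an alternative left out the 165 control and 145 induced barcodes with the highest scores.

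UMIs were summed per library and population. Ratios are log2 CPM, induced over control, with 0.5 UMI added, and exact conditional binomial 95% intervals. Shares have exact Clopper-Pearson intervals (scipy 1.17.1). A gene was tested, meaning given a ratio, with at least 50 UMIs over both libraries, and counted as higher or lower at 1.5-fold. The intervals were checked on simulated independent counts, the model that they assume, so that check could not show spread between cells or mice. Every member with at least 50 UMIs in sebaceous gland-like cells was given, and elsewhere up to the 6 largest past 1.5-fold per population, with up to 10 other lipid genes past 2-fold in sebaceous gland-like cells. Fdps in HF-SC-like cells and the sterol genes outside the members in the Hsd3b6-high and HF-SC-like cells were named besides, after their values were seen. The members and lists were chosen with earlier results of these data known. The 20% mitochondrial limit, the lifted gene limit and the 2 control cells were chosen after seeing the data. Some of the other lipid genes are not reported here by name.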

Additional observations from a re-analysis of the deposited data

Results flagged for a closer look

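Several genes lay on opposite sides between sebaceous gland-like cells and other populations. The difference between the populations was not tested in any case, because each group has 1 library. In sebaceous gland-like cells the log2 ratios were 0.91 for Hmgcs1, 1.35 for Fdps, 0.68 for Idi1, 0.75 for Cyp51, 1.00 for Fabp5 and 0.73 for Mgst1, and at the 20% mitochondrial limit 0.57, 0.56, 0.11, 0.39, 0.25 and 0.24. In dermal papilla-like cells Hmgcs1 was at −0.82, Fdps at −2.14, Idi1 at −2.21, Cyp51 at −1.35 and Fabp5 at −2.33. In HF-SC-like cells Fdps was at −0.61, Idi1 at −0.96, Cyp51 at −1.27 and Mgst1 at −3.09. In fibroblast-like cells Fdps was at −1.23, Idi1 at −0.75 and Cyp51 at −0.85. In IFE basal-like cells Idi1 was at −0.75 and Mgst1 at −0.67.

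Barcodes with 5000 or more genes are not in the comparisons. Clustered with the rest, 2 of 39 such control barcodes and 9 of 49 such induced barcodes fell among sebaceous gland-like cells. That clustering drew the class wider, with 157 control and 158 induced cells in place of 85 and 110. The 34 genes took 1.63% of the UMIs of those 2 and 3.28% of those of the 9.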

How the results depend on the processing

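No paired analysis was possible because each group has 1 library, and for the same reason no replicate could be left out. Of 91 results under 18 alternatives, the counts, medians and class shares that moved and most values that turned direction are given here. Another 137 values of single genes moved and are mostly not listed, and some of them changed sign. In sebaceous gland-like cells Pparg became 0.28 and Srebf1 0.16 with classes per cell from marker UMIs. Plin2 there became −0.27 at the 5% mitochondrial limit and Dgat2 −0.27 at the 20% limit. Among the others, Fabp5 in sebaceous gland-like cells ranged from 0.25 to 1.88 and Insig1 in upper HF-like cells from 0.09 to 1.17. In HF-SC-like cells Idi1 ranged from −1.06 to −0.33. The cause was not tested unless an alternative's own construction shows it.

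In sebaceous gland-like cells, the difference in share (0.872 points) became −0.178 at the 20% mitochondrial limit and −1.61 with classes per cell from marker UMIs. The members' median (0.09) became 0.89 at a 5% limit (9 control and 11 induced cells), 0.66 with classes per cell, 0.62 with no upper gene limit and 0.70 without the 2 control cells. The median of the other lipid genes became 0.0731 at 20%. The 10 higher members became 4 at 5%, 1 at 2-fold, 16 with classes per cell and 0 at 20%. The 5 lower became 0 at 5%, 3 with at least 200 UMIs and 1 without the 2 control cells. The 23 higher other lipid genes became 2 at 5%, 5 at 2-fold and 5 at 20%, and the 4 lower 0 at 5%.

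Directions turned in these cells at 5% for Acaca (−0.0425), Scd1 (−0.25), Hmgcs1 (−0.87), Elovl1 (1.54), Elovl5 (0.46), Awat1 (1.18), Awat2 (1.25) and Scd3 (3.47), and at 20% for Acaca (−0.0842), Acly (−0.28), Fasn (−0.0557) and Soat1 (−0.58). Without the 2 control cells Scd3 was 4.01, Awat1 3.40, Awat2 0.97 and Elovl5 1.30. With the mean over cells of CPM, Scd3 was 0.0411 and Soat1 −0.12. Elovl6 was 0.28 with no upper gene limit and 0.69 with classes per cell.

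In HF-SC-like and in dermal papilla-like cells 1 member was higher, instead of 0, with mean CPM, with at least 20 UMIs and with classes per cell. In HF-SC-like cells 2 were lower at 2-fold and 4 with classes per cell, instead of 7, and Elovl6 was 0.0592 at 5%. In dermal papilla-like cells 0 were lower, instead of 6, with at least 200 UMIs.

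In fibroblast-like cells the 2 higher became 1 without doublets, with median-of-ratios size factors, at 2-fold, at resolution 1.2, with members among variable genes, with no upper gene limit and at 20%, and 0 with at least 200 UMIs and with classes per cell. The 5 lower became 1 with at least 200 UMIs and 2 at 2-fold. Scd1 there was −0.14 at 5% and at 20%, −0.43 at resolution 1.2, −0.37 merged without integration, −0.12 with classes per cell and −0.36 with no upper gene limit.

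In IFE basal-like cells 1 was lower at 2-fold instead of 3. In IFE suprabasal-like cells the 3 higher became 0 with mean CPM, at 2-fold, merged, with classes per cell, without the 5 cells richest in member UMIs and with no upper gene limit, and 1 at 20%. The 2 lower became 1 with at least 200 UMIs, merged, with members among variable genes, with no upper gene limit and at 20%, and 0 at 2-fold and with classes per cell. Acsl1 there was −0.0263 with mean CPM, and with classes per cell Acsl3 was 0.15 and Insig1 0.0115.

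In upper HF-like cells the 3 higher became 5 with at least 20 UMIs, 1 at 2-fold, at resolution 0.4, merged and with no upper gene limit, and 0 with classes per cell. The lower ones, 0 at first, became 1 at 5%, at resolution 1.2, merged, with members among variable genes and with classes per cell, 2 at resolution 0.4 and without the 5 cells, and 3 with mean CPM. At resolution 0.4 and merged, Acly was −0.0051 and −0.0285 and Fabp5 −0.20 and −0.18.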

Other observations

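The 10% mitochondrial limit removed 554 barcodes of the control library and 578 of the induced library that the other limits had kept. Of these, 26 control and 5 induced barcodes had at least 2% of their UMIs in the 34 genes, whereas among kept cells 19 control and 31 induced did.

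The 2 control cells that held most Scd3, Awat1 and Elovl5 UMIs of their subcluster also stood out for other lipid genes, named here after their values were seen. Cers5, a ceramide synthase, had 169 and 139 UMIs in them, 7 in the other 19 control cells and at most 5 in any induced cell of the subcluster. Insig2, a relative of Insig1, had 93 and 41 UMIs in them and at most 11 in any induced cell. They had 13 and 15 Elovl6 UMIs, whereas the other 19 control cells held 1288. Of the 38 induced cells, the highest held 26 Scd3 and 10 Awat2 UMIs, so no induced cell reached the 217 and 163 UMIs of the lower of the 2.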
